A study of Mus musculus with 4 samples.

Results

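Mitosis and spindle genes are described here in reprogramming mouse cells that expressed Osr2 or a control protein. The 38 genes were chosen by symbol for their known roles in mitosis, and all 38 have an entry among the 26809 genes listed once in the expression table. They comprise the kinase that drives mitosis and its cyclins, the spindle checkpoint, partners of the anaphase-promoting complex, the chromosomal passenger complex, kinetochore proteins, spindle motors and assembly factors, the cytokinesis machinery, proteins of mitotic chromosomes and the transcription factor Mybl2. All 38 reached at least 1 TPM (a share of the library's transcripts, corrected for gene length) in at least 1 library, as did 13509 genes in all.

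RNA was sequenced from mouse embryonic fibroblasts (C57BL/6 background) on day 5 of reprogramming. In all groups the cells carried SeVdp(KOSMaB), a Sendai virus vector for the reprogramming factors Klf4, Oct4, Sox2 and c-Myc, and were selected with blasticidin S at 2 µg/mL. The groups were cells with an Osr2 transgene, grown with 10 µM SB431542 or without it, and cells with a Kusabira Orange transgene as the control, also grown with 10 µM SB431542 or without it. Osr2 is a zinc-finger transcription factor, Kusabira Orange is a fluorescent protein, and SB431542 inhibits the kinases of the TGF-β type I receptors. Each of the 4 groups had 1 library, so no difference below has a replicate check and no test was possible. How the transgenes were delivered and driven, and how many embryos the cells came from, is not given in the sources used here.

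Entry into mitosis is driven by the kinase CDK1 bound to A- and B-type cyclins. The spindle checkpoint then holds back the anaphase-promoting complex, a ubiquitin ligase, until every kinetochore is attached to microtubules, after which chromosomes separate and the cell is cut at the central spindle. Most of these genes are transcribed in G2 and M phase, through promoters that often hold a cell cycle genes homology region (CHR, bound by the MuvB complex with its activators Mybl2 and FoxM1 or as the repressive DREAM complex) and CCAAT boxes (bound by NF-Y). Their RNA is therefore widely read as a mark of dividing cells.

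Promoter windows from RefSeq (build GRCm38.p6, 250 bases before to 50 bases after the annotated start) matched 31 of the 38 genes. The motifs searched on both strands were TTTGAA and TTCGAA (CHR forms), CCAAT and, as a motif of GC-rich promoters, GGCGG. On the other strand CCAAT reads as ATTGG, which can share its last bases with GGCGG, as it does in Cdk1. TTTGAA occurred in 23 of the 31 windows (74.2%), against 18.1% of all 27025 promoter windows and 11.9% of the 10134 windows of measured genes. TTCGAA occurred in 3 windows (9.68%), against 1.57% of all windows. CCAAT occurred in 22 (71.0%), against 37.9% of all windows, and GGCGG in 28 (90.3%), against 49.0% of all windows and 82.6% of those of measured genes. A CHR form together with CCAAT occurred in 20 of the 31 windows (64.5%), against 7.70% of all windows and 6.00% of those of measured genes.

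The places of the matches were counted in these windows only. In 21 of the 23 genes with TTTGAA, a match began within 50 bases of the start. Of the 52 CCAAT matches, 51 lay before the start. Most of each window lies before the start, so evenly spread matches would mostly lie there too. Places were not counted over all promoter windows, so whether these places are particular to mitotic genes was not tested. The 7 genes with no CHR form in the window were Birc5, Ccnb1, Cenpe, Mad2l1, Mybl2, Nuf2 and Nusap1. Windows of Ccna2, Aurkb, Incenp, Dlgap5, Tpx2, Cdc25c and Kif20a are not shown. A match describes letters in the window and is not a measured binding site. The windows of Kif2c, Aurka and Ect2 begin inside the span of the gene, so bases before that span were not searched.

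**Figure D1:**
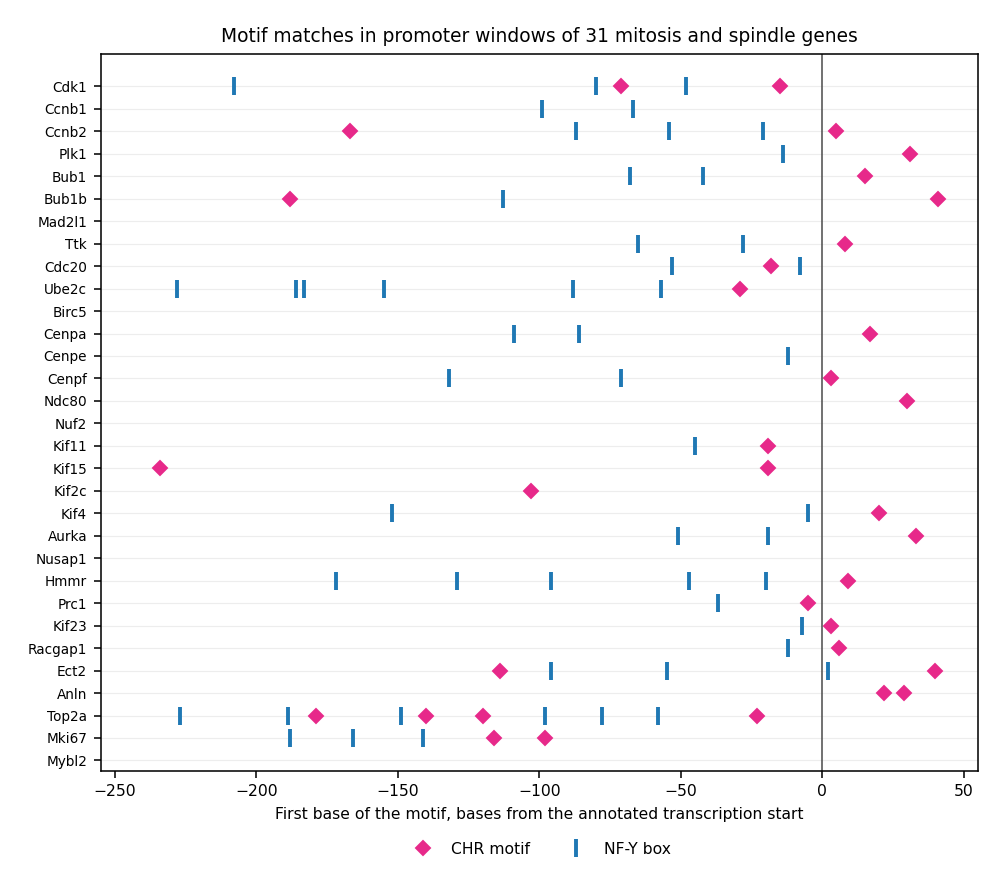
Positions of CHR motifs (diamonds, both forms) and NF-Y boxes (bars, the CCAAT motif) on either strand in the promoter windows of 31 mitosis and spindle genes, in bases from the annotated start (vertical line). The diamonds of most genes lie within 50 bases of the start and 51 of the 52 bars lie before it. Most of each window also lies before the start.

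Some of these windows are printed with matches to either CHR form or to CCAAT, on either strand, in capitals. Cdk1, Ccnb2, Cdc20 and Top2a hold a CHR form within 50 bases of the start and CCAAT before it. Kif11 was the 1 gene higher by at least 1 (log2, relative to the median gene) with Osr2 in the presence of SB431542. On TPM as deposited Kif11 was lower there. Mybl2, the gene with the lowest log2 difference without SB431542, holds neither motif in its window. That window begins inside the gene span given below for Mybl2, so bases before the span were not searched. The windows lie at chr10:69352863-69353162 (minus strand), chr9:70421505-70421804 (minus strand), chr4:118437294-118437593 (minus strand), chr19:37376132-37376431 (plus strand), chr11:99024140-99024439 (minus strand) and chr2:163054385-163054684 (plus strand), in the order of the lines, each 5′ to 3′ along its gene.
Cdk1: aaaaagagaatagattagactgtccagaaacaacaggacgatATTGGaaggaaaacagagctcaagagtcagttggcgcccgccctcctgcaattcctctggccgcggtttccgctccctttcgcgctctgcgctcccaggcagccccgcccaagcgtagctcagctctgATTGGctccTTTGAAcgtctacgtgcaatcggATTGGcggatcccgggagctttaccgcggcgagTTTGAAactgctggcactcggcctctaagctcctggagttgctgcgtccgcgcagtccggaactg
Ccnb2: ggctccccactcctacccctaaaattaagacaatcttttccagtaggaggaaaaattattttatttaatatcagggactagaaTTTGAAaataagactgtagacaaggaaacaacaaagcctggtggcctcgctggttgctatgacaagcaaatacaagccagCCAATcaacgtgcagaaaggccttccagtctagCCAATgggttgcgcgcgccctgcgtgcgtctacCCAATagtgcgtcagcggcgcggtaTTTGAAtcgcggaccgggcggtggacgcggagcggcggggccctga
Cdc20: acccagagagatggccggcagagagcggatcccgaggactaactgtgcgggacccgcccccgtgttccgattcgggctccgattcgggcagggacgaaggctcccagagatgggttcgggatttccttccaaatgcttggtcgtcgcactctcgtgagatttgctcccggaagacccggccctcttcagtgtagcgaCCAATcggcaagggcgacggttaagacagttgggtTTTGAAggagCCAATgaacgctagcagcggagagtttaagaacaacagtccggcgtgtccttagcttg
Kif11: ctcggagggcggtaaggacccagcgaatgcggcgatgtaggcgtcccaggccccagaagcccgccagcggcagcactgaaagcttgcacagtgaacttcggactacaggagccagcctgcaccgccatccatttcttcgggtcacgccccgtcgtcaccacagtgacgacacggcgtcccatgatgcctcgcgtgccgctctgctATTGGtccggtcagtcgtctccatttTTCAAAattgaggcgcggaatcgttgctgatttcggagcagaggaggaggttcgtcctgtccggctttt
Top2a: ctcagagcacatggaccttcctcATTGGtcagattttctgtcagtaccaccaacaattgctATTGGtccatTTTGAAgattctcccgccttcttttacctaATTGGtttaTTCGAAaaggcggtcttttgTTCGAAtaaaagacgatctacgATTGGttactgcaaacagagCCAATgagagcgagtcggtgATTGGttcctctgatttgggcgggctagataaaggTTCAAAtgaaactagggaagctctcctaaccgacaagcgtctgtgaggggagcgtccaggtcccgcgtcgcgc
Mybl2: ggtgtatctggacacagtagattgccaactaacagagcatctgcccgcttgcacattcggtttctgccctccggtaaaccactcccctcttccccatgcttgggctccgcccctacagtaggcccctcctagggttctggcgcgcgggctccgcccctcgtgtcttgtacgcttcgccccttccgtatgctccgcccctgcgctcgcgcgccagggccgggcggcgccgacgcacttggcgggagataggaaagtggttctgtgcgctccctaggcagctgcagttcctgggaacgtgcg

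Without SB431542 the Osr2 library held 14451812 recovered reads and the control library 18311017, and with it they held 1655180 and 13380035. Osr2 itself fitted the labels, at 59.1 TPM in Osr2 cells against 0.890 TPM in control cells without SB431542, and at 13.7 against 0.764 TPM with it. The Osr2 library with SB431542 stood apart: genes encoded in mitochondria held 15.1% of its reads, against 0.693% to 2.42% in the other libraries. In neither kind of cell did any entry have more reads with SB431542 than without, and the column with SB431542 amounted to 11.5% of the reads without it in Osr2 cells and 73.1% in control cells. The reads of a column with SB431542 may thus lie within those of its partner, and values are also given after read subtraction, in which they are taken from the partner and TPM is rebuilt. Without SB431542 the median gene was shifted by −0.80 (log2) between Osr2 and control cells, and with it by −3.51, and by −2.25 and 0.46 for SB431542 against none in Osr2 and control cells. Differences below, where no other scale is given, are therefore of log2(TPM + 1) relative to the median gene, and a gene is counted as higher or lower at a difference of at least 1 in size.

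Of the fibroblast markers, 12 of 12 were detected in every library but 1, the Osr2 library with SB431542, where Lum had 0 reads. Their summed level was 10211 TPM in Osr2 cells and 1498 TPM in control cells without SB431542, and 471 and 1202 TPM with it, where scaling to the median gene turns the order round (3899 and 872 TPM). Of 9 pluripotent cell markers 6 and 2 had 0 reads in Osr2 and control cells with SB431542, and 5 and 0 without it, with sums of 1.16 to 5.20 TPM. Scaled to the median gene, these sums were 9.79 TPM in Osr2 and 3.78 TPM in control cells with SB431542, and 2.02 and 4.38 TPM without it. Summed macrophage markers stood at 63.6 TPM in Osr2 and 19.5 TPM in control cells without SB431542, and at 14.7 and 27.1 TPM with it, or 122 and 19.7 TPM once scaled to the median gene. Epithelial markers summed to 2.77 TPM in Osr2 and 19.0 TPM in control cells without SB431542 and to 1.89 and 23.9 TPM with it. Endothelial ones summed to 5.08 and 9.26 TPM and to 0.444 and 14.5 TPM, and erythroid ones to at most 0.813 TPM in any library. Scaled to the median gene, epithelial sums with SB431542 were 15.7 TPM in Osr2 and 17.3 TPM in control cells, and endothelial ones 3.68 and 10.5 TPM. The part of these differences in the mitotic values was not tested.

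Without SB431542, mitotic genes were lower in Osr2 cells throughout. All 38 genes had a difference below 0, 25 were lower by at least 1 and none was higher by that much, beside 11.4% of all measured genes that were lower by at least 1. The median difference was −1.19, against −0.02 over all measured genes, and the genes ran from −2.22 for Mybl2 to −0.07 for Anln. They took 14452 reads in Osr2 cells and 62899 in control cells, and their TPM summed to 228 and 931. A smaller number of dividing cells and less of these RNAs in each cell cannot be told apart in bulk RNA.

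The scale changed how many genes passed, not the direction of the median. On TPM as deposited 37 of the 38 genes were lower by at least 1, beside 30.6% of all measured genes, with a median of −1.84. After read subtraction 15 were lower by at least 1, beside 10.8%, 36 lay below 0 and the median was −0.85. Of those 15 genes, 13 were also among the 25, and the other 2 were Kif11 and Ube2c. The 12 genes that no longer passed were Cdk1, Ccnb1, Cdc25c, Bub1, Mad2l1, Ttk, Cenpe, Kif15, Kif4, Nusap1, Ect2 and Top2a. The 2 genes then above 0 were Anln at 0.61 and Prc1 at 0.05.

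With SB431542 the genes diverged. Of the 38, 19 were lower by at least 1 in Osr2 cells, beside 27.9% of all measured genes, and 1 (Kif11) was higher by at least 1, beside 19.9%. The median was −0.96, against −0.21 over all measured genes, the genes ran from −3.79 for Kif4 to 1.80 for Kif11, and 11 of them lay above 0. On TPM as deposited, all 38 were lower by at least 1, but so were 88.1% of all measured genes. Reads were few: 10 of the 38 genes had under 10 reads in the Osr2 library with SB431542, Kif4 and Ttk had 0, and the 11 genes above 0 had 28 to 335 reads. Read subtraction takes no reads from the columns with SB431542, so here it changes only the scaling, after which 9 genes lay above 0.

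Across the pair of comparisons, which share no library though their reads may overlap as described, 13 genes were lower by at least 1 in both, 12 only without SB431542, 6 only with it and 7 in neither. Over all 13509 measured genes the shares were 6.48% in both, 4.92% only without SB431542, 21.4% only with it and 67.2% in neither, against 34.2%, 31.6%, 15.8% and 18.4% of the 38. The "only" counts rest on the size rule, and the difference between the comparisons has no test here.

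**Figure D2:**
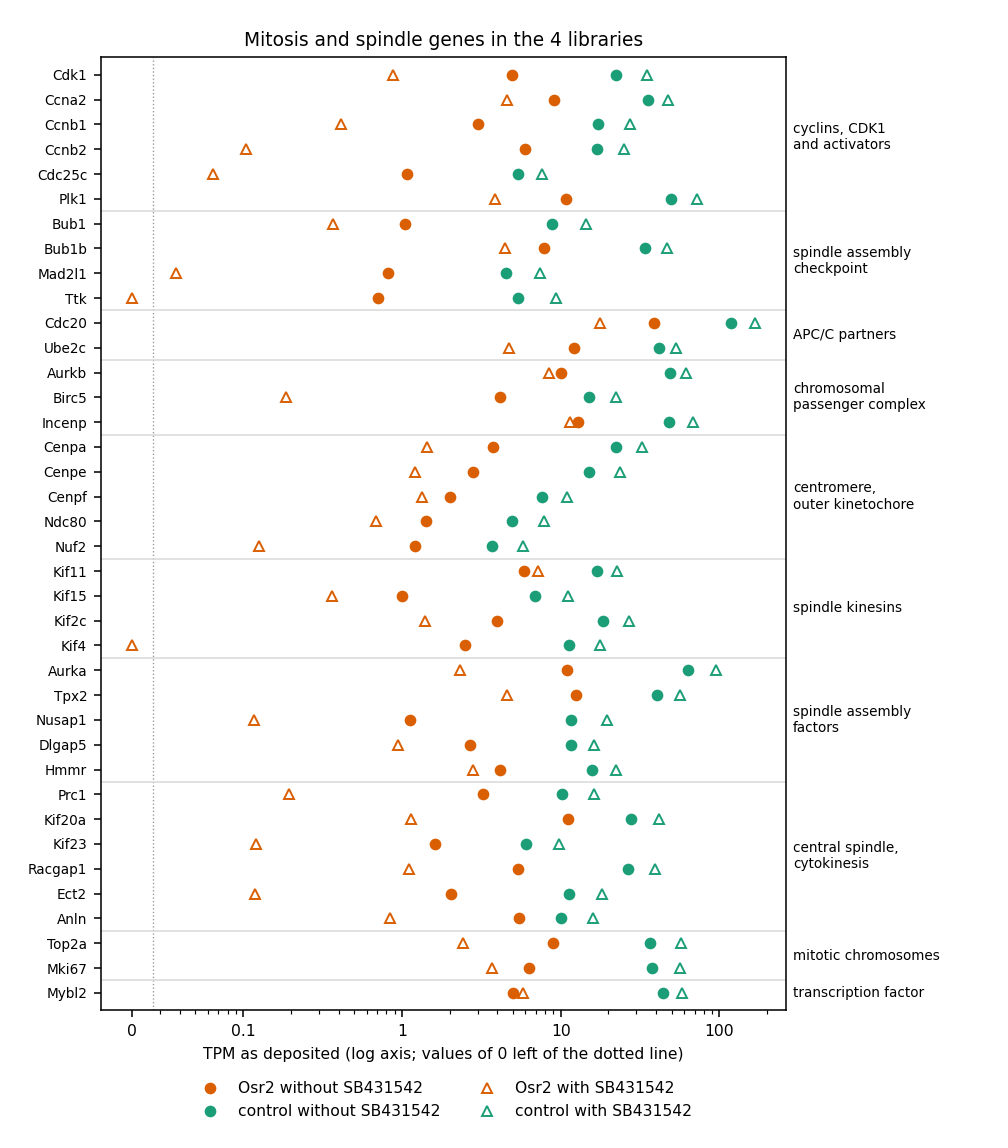
TPM as deposited of the 38 genes, by role, in the 4 libraries (orange, Osr2; green, control; circles, without SB431542; triangles, with it) on a log axis, with values of 0 left of the dotted line. Every orange circle lies left of its green circle and every orange triangle left of its green triangle, and Kif4 and Ttk are at 0 in Osr2 cells with SB431542.

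Cyclins, CDK1 and its activators were lower without SB431542 in 5 of 6 genes (median −1.21). Cdk1 (chr10:69335146-69352912), the mitotic kinase, stood at 4.94 TPM (342 reads) in Osr2 cells and 22.2 TPM (1597 reads) in control cells without SB431542. With the inhibitor it stood at 0.875 TPM (27 reads) in Osr2 and 35.1 TPM (1374 reads) in control cells. It was thus lower in Osr2 cells on either side of the treatment, by 2.58 times (95% counting interval 2.30 to 2.91) and 3.51 times (2.40 to 5.35) relative to the median gene. Ccnb1 (chr13:100778739-100786486), cyclin B1, the partner of CDK1, stood at 3.03 TPM in Osr2 and 17.1 TPM in control cells without SB431542. With the inhibitor it stood at 0.417 TPM (11 reads) in Osr2 and 27.1 TPM in control cells. Its read ratio was 3.25 times lower (2.77 to 3.83) and 5.70 times lower (3.17 to 11.5). After read subtraction the differences without SB431542 were −0.51 for Cdk1 and −0.68 for Ccnb1, so neither passed the size rule there.

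The other genes that drive mitotic entry did not move as one. Ccnb2 (chr9:70407689-70421554), cyclin B2, differed by −0.64 without SB431542, at 6.01 TPM in Osr2 and 16.8 TPM in control cells. With SB431542 it had 1 read in Osr2 cells, against 305 in control cells, a difference of −3.36 and a read ratio 21.0 times lower (3.75 to 834). Ccna2, cyclin A2, differed in the other order, with −1.11 without SB431542 and 0.15 with it, at 4.58 TPM (117 reads) in Osr2 and 47.1 TPM in control cells. Cdc25c, the phosphatase that activates CDK1, differed by −1.15 and, on 2 reads in Osr2 cells, −2.09, and the polo-like kinase Plk1 by −1.35 and −0.69.

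The 4 genes of the spindle checkpoint were all lower by at least 1 without SB431542 (median −1.38). Bub1 (chr2:127800197-127831859), a checkpoint kinase at the kinetochore, stood at 1.05 TPM (64 reads) in Osr2 and 8.88 TPM (564 reads) in control cells, which is 4.87 times lower (3.76 to 6.41). With SB431542 it stood at 0.367 TPM (10 reads) in Osr2 and 14.5 TPM (502 reads) in control cells, 3.46 times lower (1.87 to 7.27). Ttk (chr9:83834651-83872390), the kinase Mps1 that starts the checkpoint signal, had 49 reads in Osr2 and 387 in control cells without SB431542, 4.37 times lower (3.24 to 6.01). With SB431542 it had 0 reads in Osr2 and 363 in control cells. Mad2l1, whose product binds Cdc20 and blocks it, differed by −1.20 and −2.28, the second on 2 reads in Osr2 cells. Bub1b (BubR1), of the complex that inhibits Cdc20, was the exception, at 0.13 with SB431542 and −1.25 without it. After read subtraction 1 of the 4, Bub1b at −1.55, was lower by at least 1 without SB431542.

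Partners of the anaphase-promoting complex had a median of −0.88 without SB431542, and −1.17 after read subtraction. Cdc20 (chr4:118432901-118437343), its activator in mitosis, had the highest level of the 38 genes in every library. It stood at 38.8 TPM in Osr2 and 118 TPM in control cells without SB431542, and at 17.7 and 168 TPM with it. Relative to the median gene it was 1.76 times lower (1.64 to 1.89) without SB431542, a difference of −0.80, and at a ratio of 1.21 (1.04 to 1.39) with it. Ube2c, the ubiquitin-conjugating enzyme of the complex, differed by −0.95 and 0.02. Relative to the median gene neither passed the size rule in either comparison, but Ube2c did without SB431542 after read subtraction (−1.40), where Cdc20 was at −0.95.

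Subunits of the chromosomal passenger complex, which corrects wrong attachments and then moves to the central spindle, separated with SB431542. Aurkb (chr11:69045624-69051664), its kinase Aurora B, stood at 10.0 TPM (415 reads) in Osr2 and 48.9 TPM (2102 reads) in control cells without SB431542. With the inhibitor it stood at 8.46 TPM (156 reads) in Osr2 and 61.7 TPM (1443 reads) in control cells. The level was thus lower in Osr2 cells as deposited in both, while the difference relative to the median gene was −1.43 without SB431542 and 0.64 with it. Incenp (chr19:9872295-9899489), the scaffold of the complex, had differences of −1.08 and 0.93, at 11.5 TPM (311 reads) in Osr2 and 68.0 TPM in control cells with SB431542. Birc5 (chr11:117849237-117855743), survivin, had −0.96 and −2.74, the second on 4 reads in Osr2 and 599 in control cells. Read subtraction left the same signs, with −2.27 for Aurkb, −1.58 for Incenp and −0.56 for Birc5 without SB431542.

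At the centromere and outer kinetochore, 2 of 5 genes were lower by at least 1 without SB431542. These were Cenpa, the histone H3 variant that marks centromeres (−1.63), and Cenpe, a kinetochore kinesin (−1.45). Cenpf, a large kinetochore protein, differed by −0.94, and the microtubule-binding subunits Ndc80 and Nuf2 by −0.76 and −0.59. Nuf2 (chr1:169497934-169531464) had the lowest level of the 38 genes in control cells, at 3.70 TPM without SB431542, against 1.21 TPM in Osr2 cells. With SB431542 only Nuf2 of these 5 genes passed the size rule (−1.35, on 5 reads in Osr2 cells), while Cenpa and Cenpe differed by −0.93 and −0.73 and Cenpf and Ndc80 by 0.43 and 0.01.

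The spindle kinesins held both ends of the range with SB431542. Kif11 (chr19:37376382-37421863), the Eg5 motor that pushes spindle poles apart, stood at 5.90 TPM (618 reads) in Osr2 and 16.9 TPM (1844 reads) in control cells without SB431542, 1.65 times lower (1.51 to 1.81). After read subtraction that difference was −1.61, against −0.67 before. With SB431542 it stood at 7.18 TPM (335 reads) in Osr2 and 22.6 TPM (1338 reads) in control cells. That is lower as deposited (−1.53) and 3.63 times higher (3.21 to 4.09) relative to the median gene, a difference of 1.80. Kif4 (chrX:100626065-100727271), a chromosome-arm kinesin, had 192 reads in Osr2 and 909 in control cells without SB431542, and 0 and 776 with it, where the size of its difference depends on the 1 TPM added. Kif15, a motor that can stand in for Kif11, differed by −1.52 and −1.17, and Kif2c, a kinesin that takes microtubules apart, by −1.30 and −0.71.

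Of the spindle assembly factors 4 of 5 were lower by at least 1 without SB431542. Nusap1 (chr2:119618298-119650165), which bundles spindle microtubules, stood at 1.12 TPM (64 reads) in Osr2 and 11.7 TPM (691 reads) in control cells, 5.97 times lower (4.62 to 7.84). With SB431542 it had 3 reads in Osr2 and 634 in control cells, a difference of −2.95 and a ratio 14.6 times lower (4.97 to 70.9). After read subtraction its difference without SB431542 was −0.60, against −2.10 before. The spindle pole kinase Aurka was lower by a like amount in both comparisons (−1.68 and −1.77), while its activator Tpx2 differed by −0.86 and −0.10. Dlgap5 and Hmmr, which act on spindle microtubules, differed by −1.15 and −1.02 without SB431542 and by −0.55 and 0.49 with it.

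Genes of the central spindle and cytokinesis were the role with most genes past the size rule with SB431542. There 5 of 6 were lower by at least 1, beside 27.9% of all measured genes, and without it 2 of 6, beside 11.4%. Anln (chr9:22331214-22389211), anillin, a scaffold of the contractile ring, was the gene with the smallest difference without SB431542, at 5.50 TPM (699 reads) in Osr2 and 10.1 TPM (1335 reads) in control cells. Relative to the median gene that was 1.06 times lower (0.963 to 1.16), the 1 interval of the 38 that reached 1. With SB431542 it stood at 0.846 TPM (48 reads) and 16.1 TPM, a difference of −0.66. Kif20a (chr18:34624624-34633277), a kinesin that carries the passenger complex to the central spindle, differed by −0.51 and −1.57. Ect2, which activates RhoA for furrowing, and Racgap1 and Kif23, which form centralspindlin, differed by −1.42, −1.41 and −0.89 without SB431542 and by −2.85, −1.53 and −2.02 with it. Prc1, which bundles the microtubules of the midzone, differed by −0.75 and −2.29. In Osr2 cells with SB431542, Ect2 had 4 reads, Kif23 6 and Prc1 10. After read subtraction the median of the 6 genes without SB431542 was −0.10, against −0.82 before. Racgap1 (−1.10) was then the only 1 of them lower by at least 1. Prc1 (0.05) and Anln (0.61) then lay above 0, with a ratio of 1.71 (1.45 to 2.03) for Anln.

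On mitotic chromosomes, Top2a (chr11:98992947-99024199), the topoisomerase that untangles sister DNA, stood at 8.99 TPM (1137 reads) in Osr2 and 36.6 TPM (4816 reads) in control cells without SB431542. With the inhibitor it stood at 2.43 TPM (137 reads) in Osr2 and 57.0 TPM (4081 reads) in control cells. It was 2.34 times lower (2.20 to 2.50) and 2.06 times lower (1.73 to 2.45), with −1.18 without SB431542 and, after read subtraction, −0.59. Mki67 (chr7:135689784-135716450), Ki-67, the usual stain for dividing cells, stood at 6.33 TPM (893 reads) in Osr2 and 37.6 TPM (5521 reads) in control cells without SB431542. With the inhibitor it stood at 3.70 TPM (233 reads) in Osr2 and 56.6 TPM in control cells. Its ratio was 3.42 times lower (3.18 to 3.67) and 1.34 times lower (1.17 to 1.54), so it stayed below the median gene in both.

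Mybl2 (chr2:163054327-163084688), B-Myb, which activates mitotic genes with MuvB, had the lowest difference of the 38 without SB431542. It stood at 4.99 TPM (324 reads) in Osr2 and 44.0 TPM (2971 reads) in control cells, 5.07 times lower (4.52 to 5.70), with −2.22 and, after read subtraction, −3.06. With SB431542 it stood at 5.83 TPM (169 reads) in Osr2 and 58.2 TPM (2142 reads) in control cells, a difference of 0.19 with a ratio of 1.14 (0.972 to 1.34). Mybl2 thus had the lowest log2 difference of the 38 genes without SB431542 and was among the 11 above 0 with it. By read ratio, to which no TPM is added, Nusap1 was lower still without SB431542 (5.97 times lower).

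**Figure D3:**
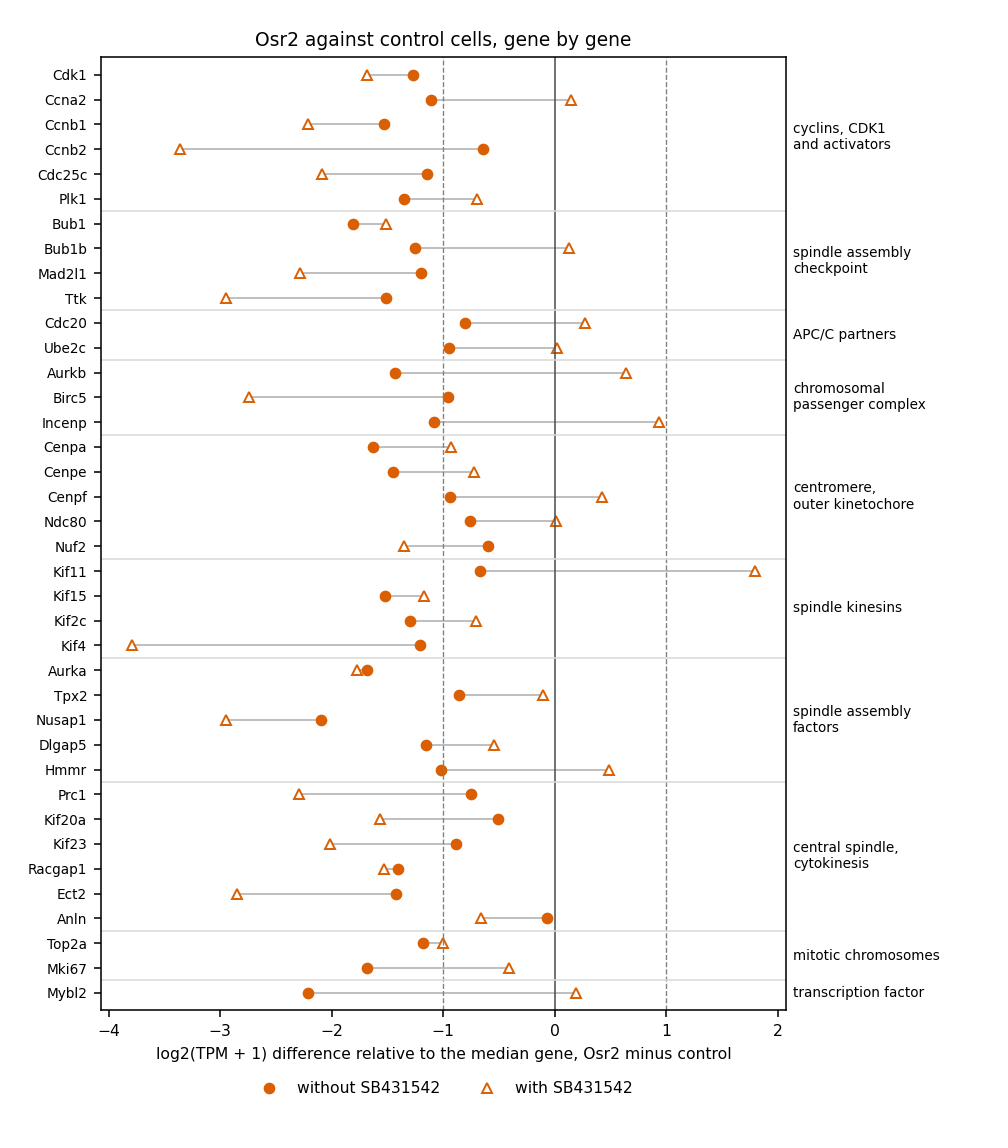
Differences of log2(TPM + 1) relative to the median gene, Osr2 minus control, of the 38 genes by role, without SB431542 (filled circles) and with it (open triangles), with dashed lines at −1 and 1. All circles lie left of 0, while the triangles reach from −3.79 (Kif4) to 1.80 (Kif11).

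For SB431542 in control cells, the differences of these genes relative to the median gene were small. The 38 differences ran from −0.13 (Aurkb) to 0.28 (Ttk), with a median of 0.10. None passed the size rule in either direction, beside 0.577% of all measured genes lower and 0% higher. In control cells no entry had more reads with SB431542 than without, which caps a rise on this scale below the size rule. The absence of higher genes was thus fixed in advance and shows nothing about SB431542. Besides Aurkb the lowest were Ube2c (−0.10) and Mybl2 (−0.06), and besides Ttk the highest were Nusap1 (0.27) and Bub1 (0.22). As deposited the median was 0.55, close to the shift of all genes. After read subtraction the 38 differences ran from −0.41 to 1.53, with a median of 0.48. On that scale 4 genes were higher by at least 1, beside 7.11% of all measured genes: Nusap1 (1.53), Ttk (1.46), Bub1 (1.13) and Ect2 (1.13). These 4 had 24 to 102 reads left in the control column without SB431542.

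SB431542 in Osr2 cells spread the genes in both directions. Of the 38, 10 were higher by at least 1, beside 16.5% of all measured genes, and 6 were lower by that much, beside 26.7%. The median was 0.53, against −0.16 over all measured genes. The highest were Kif11 (2.42), Mybl2 (2.35) and Incenp (2.04), followed by Aurkb (1.94), and the lowest were Ccnb2 (−2.62), Kif4 (−2.41) and Birc5 (−1.68), which had 1, 0 and 4 reads with the inhibitor. All 6 genes of the central spindle and cytokinesis lay below 0, and 5 of the 6 after read subtraction. As deposited the median was −0.97, 18 genes were lower by at least 1 and none was higher, so the direction of the median depends on the scale.

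The difference between the SB431542 effects, in Osr2 cells minus control cells, was higher by at least 1 in 10 genes, beside 18.1% of all measured genes, and lower by that much in 9, beside 27.7%. Its median was 0.32 relative to the median gene, −0.39 after read subtraction and −1.52 as deposited, so it has no stable sign.

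**Figure D4:**
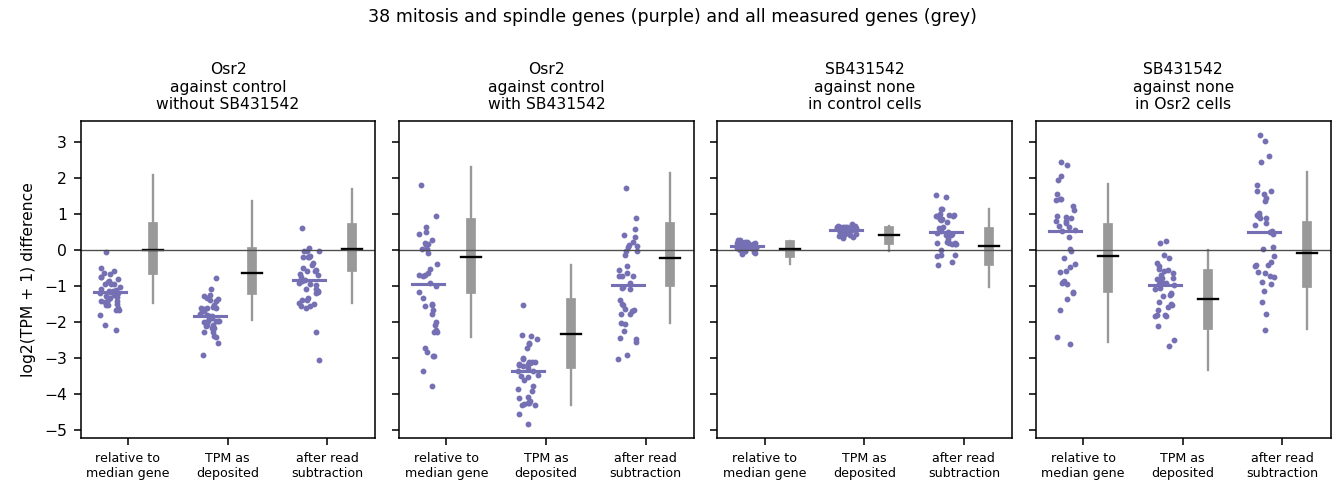
Differences of log2(TPM + 1) of the 38 genes (purple points, with their median as a line) beside all 13509 measured genes (grey, 5th to 95th percentile as a line, 25th to 75th as a box, median in black), for 4 comparisons on 3 scales. The medians of the 38 genes lie below those of all genes for Osr2 against control on each scale, and change sign with the scale for SB431542 in Osr2 cells.

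The numbers of reads in the paired columns varied together over these genes. The column with SB431542 held 0% to 54.2% of the reads without it in Osr2 cells (median 15.6%), while in control cells 6.20% to 31.4% of the reads without SB431542 lay above the number with it (median 19.1%). Across the 38 genes these shares had a Spearman correlation of 0.66 and a Pearson correlation of 0.67, and across 9369 genes with at least 100 reads in both columns without SB431542 they had 0.42 and 0.37. Genes are not independent replicates, and these shares are ratios within columns that may hold the same reads. In log2 reads per library total, the Osr2 column with SB431542 correlated (Pearson) at 0.87 across the 9369 genes with the reads left in the control column without SB431542, at 0.68 with the control column with it and at 0.64 with the reads left in the Osr2 column without it. Across the 38 genes these were 0.89, 0.81 and 0.71. All of them share the gene's overall level and length, and every value for SB431542 in Osr2 cells rests on this column. Kif11 and Mybl2 were high in both, with 54.2% and 52.2% in Osr2 cells and 27.4% and 27.9% in control cells, while Ttk and Nusap1 were low in both, with 0% and 4.69% against 6.20% and 8.25%.

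**Figure D5:**
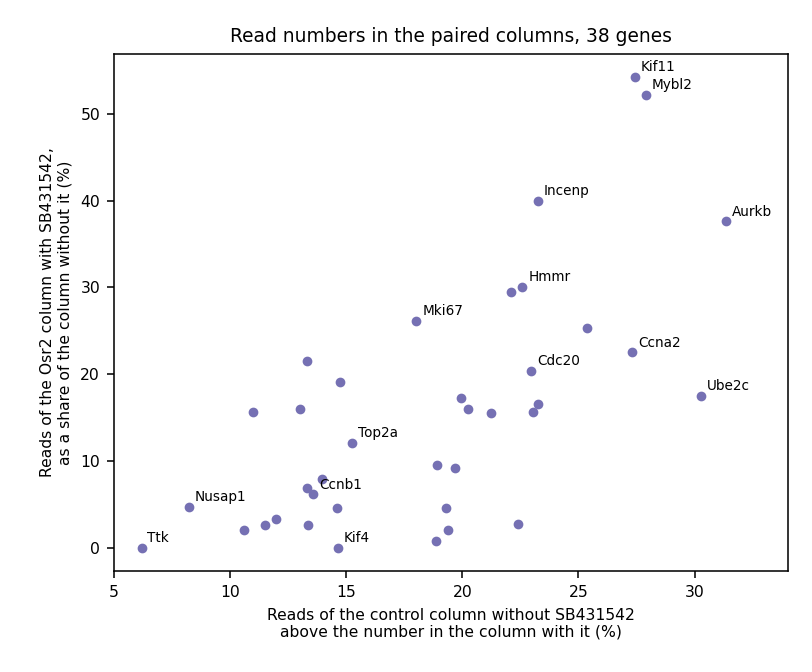
For each of the 38 genes, reads of the Osr2 column with SB431542 as a percentage of the column without it (vertical) against the percentage of reads of the control column without SB431542 that lie above the number with it (horizontal). The points run from Ttk at 0% and 6.20% to Kif11 at 54.2% and 27.4%.

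Differences bore little relation to gene length. Recovered exon lengths ran from 1531 to 15433 bases, and Spearman correlations with the difference for Osr2 against control were 0.08 without SB431542 and 0.03 with it across the 38 genes.

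Other genes of mitosis, taken as lists by role, showed the same direction without SB431542 but less uniformly. Of 122 measured genes on these lists, 42 were lower by at least 1 in Osr2 cells without SB431542 and none was higher (median −0.70), beside 11.4% and 16.6% of all measured genes. With it 48 were lower and 5 higher (median −0.72), beside 27.9% and 19.9%. After read subtraction 25 were lower and 2 higher without SB431542 (median −0.37). The 46 further mitotic and G2/M genes all lay below 0 without SB431542, and 24 were lower by at least 1. Their lowest were Bora, an activator of Aurora A (−2.00), and Depdc1b (−1.85), and their highest were Tubb5, a β-tubulin (−0.22), and Wee1, a kinase that restrains CDK1 (−0.11). With SB431542 the lowest were Cks2, a subunit bound to CDK1 (−4.56, on 0 reads in Osr2 cells), and the kinase Pbk (−3.19, on 1 read), and the highest were Wee1 (1.90) and Pkmyt1, another kinase that restrains CDK1 (1.09).

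Structural and regulatory partners differed by group. The counts without SB431542 stand beside 11.4% of all measured genes that were lower by at least 1. Of 19 measured condensin and cohesin genes, 8 were lower by at least 1 (median −0.74), led by Cdca5, sororin (−2.01), and Espl1, separase (−1.83). Of 28 further kinetochore genes 8 were lower (median −0.81), led by Cenpu (−1.59) and Cenpn (−1.37). Subunits and regulators of the anaphase-promoting complex had a median of 0.00, and of 16 only Fbxo5, its inhibitor Emi1, was lower by at least 1 (−1.69). The MuvB, DREAM and FoxM1 list had a median of −0.21, with 1 of 13 lower by at least 1 (Myb, −1.61). For this list and the anaphase-promoting complex list the count falls under the share of all measured genes. The highest genes of these 4 lists without SB431542 were Pttg1 (0.08), Mis12 (0.38), Anapc4 (0.73) and Rbl2 (0.53). After read subtraction the medians of these 4 lists without SB431542 were −0.20, −0.29, 0.27 and −0.42. With SB431542, relative to the median gene, they were −1.03, −0.73, −0.49 and −0.02.

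DNA replication genes, which act in S phase, were also lower without SB431542. Of 42 measured, 27 were lower by at least 1 in Osr2 cells without SB431542 (median −1.15), beside 11.4% of all measured genes. With it 15 were lower, beside 27.9%, and 4 higher, beside 19.9% (median −0.62). Among 7 CDK inhibitors, which hold the cell cycle back, 3 were higher by at least 1 and none lower without SB431542 (median 0.99), beside 16.6% of all measured genes higher. After read subtraction the median was 0.31 and 3 of the 7 lay below 0. The highest was Cdkn1c, p57, at 173 TPM in Osr2 and 8.54 TPM in control cells, a difference of 4.99 that was 3.61 after read subtraction. Cdkn2b, p15, a known target of TGF-β signalling, was at 139 TPM in Osr2 and 81.0 TPM in control cells, with 1.57 relative to the median gene and 0.40 after read subtraction. Cdkn1b, p27, had 1.49 and 1.19. Relative to the median gene the lowest without SB431542 were Cdkn2d, at 0.11, and then Cdkn2a. With SB431542 the median of the 7 genes was 1.00, with Cdkn1c at 2.65 and Cdkn2b at 2.56. The lowest there was Cdkn1b, at −0.32, and no gene was lower by at least 1. On TPM as deposited all 7 lay below 0 with SB431542, 5 were lower by at least 1 and the median was −1.85, so their direction there depends on the scale.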

How the data were processed

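Poly(A) RNA was sequenced in 4 libraries, 1 per group. Per the series design text, the authors mapped reads with STAR 2.7.3a to GRCm38.p6, counted them per gene with featureCounts 2.0.0 and an Ensembl annotation (release 75), and deposited TPM. TPM is a share of each library, so a few abundant genes shift all others. A second table with 4 columns that match no sample was not used. Of 27304 entries, 26 with date-like names and 469 sharing 140 symbols were left out.

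From the deposited TPM, whole reads were recovered, since TPM steps by whole reads over gene length: all 18883 entries above 0 were whole within 0.001. For 18113 of 18121 entries the recovered length, or a whole-number multiple of it, equalled the GENCODE exon length. Lengths and reads were raised by that factor where needed. This GENCODE set is another annotation than the Ensembl release named above, and the discrepancy was not resolved. To set libraries to the median gene, the median of TPM ratios to the untreated control was taken over the 7867 genes averaging 5 TPM or more and divided out, and 1 TPM was added before log2. For read subtraction the median was taken over 7754 genes. Read ratios carry exact binomial 95% intervals, which cover counting error only. Wherever a comparison has 1 library a side, values were counted by size and no p-value was computed. Read recovery was tested on simulated data. Python 3.11.15 with numpy 2.4.6, pandas 2.3.3, scipy 1.17.1 and matplotlib 3.10.9 was used.

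The 38 genes and the gene lists were chosen with earlier results of these data known. Of 255 listed genes 251 are in the table. Genes described in full are the 3 highest and 3 lowest of a comparison and 8 that define a role. From other lists, genes were named from the 2 highest and 2 lowest of a comparison, and not all of these are named. The alternatives were TPM as deposited, read subtraction, another set of genes for the median, pseudocounts of 0.1 and 5 TPM, no filter or at least 5 TPM, and a size of 0.5. Setting members at 0 reads to 3 reads was added after seeing the data. Gene positions are from RefSeq on GRCm38.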

Additional observations from a re-analysis of the deposited data

Results flagged for a closer look

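For 11 of the 38 genes the difference for Osr2 against control had opposite signs, below 0 without SB431542 and above 0 with it. These are 28.9% of the 38, beside 15.0% of all measured genes, with a further 20.1% of all genes in the opposite order. Without SB431542 all 38 lay below 0, whereas the median over all measured genes was −0.02. The shares thus start from unlike sets and do not show that the 38 changed sign more readily. The values below are the difference with SB431542 minus that without it, relative to the median gene, and each equals the SB431542 difference in Osr2 cells minus that in control cells. With 1 library per group, the difference between the comparisons was not tested. Kif11, the Eg5 motor, had 2.47 and Mybl2, the transcription factor, 2.41. The passenger complex subunits Aurkb and Incenp had 2.07 and 2.01. Hmmr had 1.51, Bub1b 1.38, Cenpf 1.37 and Ccna2 1.26. Cdc20 had 1.07, its partner Ube2c 0.97 and Ndc80 0.77. On TPM as deposited 0 of the 38 genes had opposite signs. After read subtraction 9 of the 11 kept this order, which is 23.7% of the 38, beside a like share of 22.2% of all measured genes. Ube2c and Ndc80 were then below 0 in both comparisons, and Anln and Prc1 had the opposite order. The opposite signs thus appear only where libraries are set to the median gene. For the Osr2 library with SB431542, which has 1655180 reads of which 15.1% are mitochondrial, that step removes a shift of −3.05 (log2) from the control library without SB431542.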

How the results depend on the processing

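The lower level in Osr2 cells without SB431542 kept its direction under every alternative run. Its median of −1.19 was −1.84 on TPM as deposited, −0.85 after read subtraction and −0.83 with a pseudocount of 5 TPM, and the count of 25 lower genes became 15 and 14 under the last pair. With SB431542, TPM as deposited gave a median of −3.36 with 38 genes lower and 0 higher, and the 1 higher gene became 2 with a median over all genes averaging 1 TPM or more and 3 at a size of 0.5. For SB431542 in control cells, the median of 0.10 was 0.55 as deposited and 0.48 after read subtraction, which gave 4 higher genes in place of 0. For SB431542 in Osr2 cells, TPM as deposited turned the median to −0.97 with 18 genes lower and 0 higher, against 6 and 10. There the lower genes numbered 10 with a pseudocount of 0.1 TPM, 1 with 5 TPM and 12 at a size of 0.5, which gave 20 higher genes. For the SB431542 difference in Osr2 cells minus control cells, the median of 0.32 was −1.52 as deposited, with 32 genes lower and 0 higher, and −0.39 after read subtraction, with 14 lower. A pseudocount of 5 TPM gave 2 lower genes, and a size of 0.5 gave 14 lower and 18 higher, against 9 and 10. In the other 92 cases counts moved by at most 1.5 times and medians by no more than a counting width. That width was built from the medians of the genes' counting interval ends and is not an interval on the median itself. The cause of these changes was not tested, except that a size of 0.5 counts more genes by construction. No paired analysis was possible because each group has 1 library and the result comes from no test. Leaving out a replicate was not possible either. Depth limits the Osr2 library with SB431542 most, where 10 of the 38 genes had under 10 reads.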
